A study of Arabidopsis thaliana with 8 samples.

Results

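NdhN (AT5G58260), NdhS (AT4G23890) and CRR21 (AT5G55740) are nuclear genes of Arabidopsis thaliana whose products serve the chloroplast NADH dehydrogenase-like (NDH) complex. They were chosen as the probes whose platform annotation lists exactly 1 gene, that gene being NdhN, NdhS or CRR21, which gave 3 of 690 such probes that matched the reference gene table and 3 of 3439 probes in all. The study used 8 single-channel arrays of total RNA from wild-type plants, ecotype Landsberg. The plants had spent 48 hours in red light, at 20 µE on 4 arrays and at 200 µE on the other 4, and the comparison asks which transcripts differ between these light levels. The sources used here do not give age, tissue or earlier growth of the plants. The replicate numbers 1 to 4 come from the sample titles. Whether they stand for separate plants is not stated, so the p-values below measure the spread between arrays, which may be technical.

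The NDH complex sits in the thylakoid membrane and passes electrons from ferredoxin to plastoquinone, which makes it a route of cyclic electron flow around photosystem I. Its subunits are encoded partly in the plastid genome and partly in the nucleus, so the complex needs coordinated supply from both. NdhN is a subunit of the arm that faces the stroma. NdhS is a peripheral subunit at the site where ferredoxin docks. CRR21 is a pentatricopeptide repeat protein, a sequence-specific RNA-binding protein that is needed for C-to-U editing of the plastid ndhD transcript, which encodes a membrane subunit of the complex.

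The 3 genes gave 3 different pictures. NdhS was among the brightest probes on every array, and its direction between the light levels depended on how the arrays were scaled. CRR21 had an intermediate signal that was higher at 200 µE in the deposited values and lower there once the arrays were brought to a common distribution. NdhN was listed at 0 on 7 of the 8 arrays. By limma on quantile-normalized values, 0 of the 3 passed an adjusted p of 0.05, against 6.83% of all 3439 probes and 5.36% of the single-gene probes. At an unadjusted p under 0.05 the count was 1 of 3 (CRR21), against 18.3% of all probes. With the replicate number as a block, 1 of the 3 passed (NdhS), against 18% of all probes. With 3 members, a count of 1 cannot be told apart from these shares.

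The deposited intensities are on a linear scale on which every array reaches a maximum of 100. Between 476 and 604 probes per array were listed at 0. The median of the values above 0 ran from 0.267 to 0.345 at 20 µE and from 0.513 to 0.578 at 200 µE. A probe that kept pace with the median of its array would therefore be higher at 200 µE in the deposited values, by 0.84 on the log2 scale. Replicates 1 and 2 of both light levels also differed as a set from replicates 3 and 4. The labels do not name these sets, which come from the values themselves. Each gene is given below as deposited, after quantile normalization, and, where the choice matters, relative to the median of its array. Since RNA came from whole samples, fewer cells with a transcript and less of it per cell cannot be told apart.

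NdhS was bright in both kinds of light. At 20 µE its deposited intensity was 5.52, 5.85, 11.8 and 11.8 in replicates 1 to 4. At 200 µE it was 8.86, 9.04, 10.1 and 10.7. The 20 µE arrays thus lay on both sides of the 200 µE arrays, replicates 1 and 2 below all of them and replicates 3 and 4 above all of them. Its mean was 8.74 ± 3.53 (SD, n = 4) in dim and 9.67 ± 0.865 (SD, n = 4) in bright light, a ratio of 1.11. The coefficient of variation was 40.4% at 20 µE and 8.95% at 200 µE.

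Compared within replicate numbers, deposited NdhS was 1.61-fold higher at 200 µE in pair 1 and 1.55-fold higher in pair 2. It was 1.17-fold higher at 20 µE in pair 3 and 1.1-fold higher at 20 µE in pair 4. An increase in the first set and a decrease in the second was seen on 4.73% of the 2600 probes above 0 on all arrays, and on 10.9% of the 650 probes in the brightest of 4 equal classes of brightness, to which NdhS belongs. The spread at 20 µE followed the sets. There the mean of replicates 3 and 4 was 2.08 times that of replicates 1 and 2, while at 200 µE it was 1.16 times. By limma, the deposited log2 difference between light levels was 0.84 ± 0.13 (SE) smaller in replicates 3 and 4 than in replicates 1 and 2, with an unadjusted p of 0.00136 and an adjusted p of 0.086. On that scale 0 of 3439 probes passed by limma, while 582 had an unadjusted p under 0.05. After quantile normalization this gap was 0.32 ± 0.064 (SE; limma, adjusted p = 0.0744), where 5.79% of all probes passed by limma. The difference in NdhS response between the sets therefore missed the threshold on both scales. Since the sets were read from these same values, its p-values serve as a description only.

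**Figure D1:**
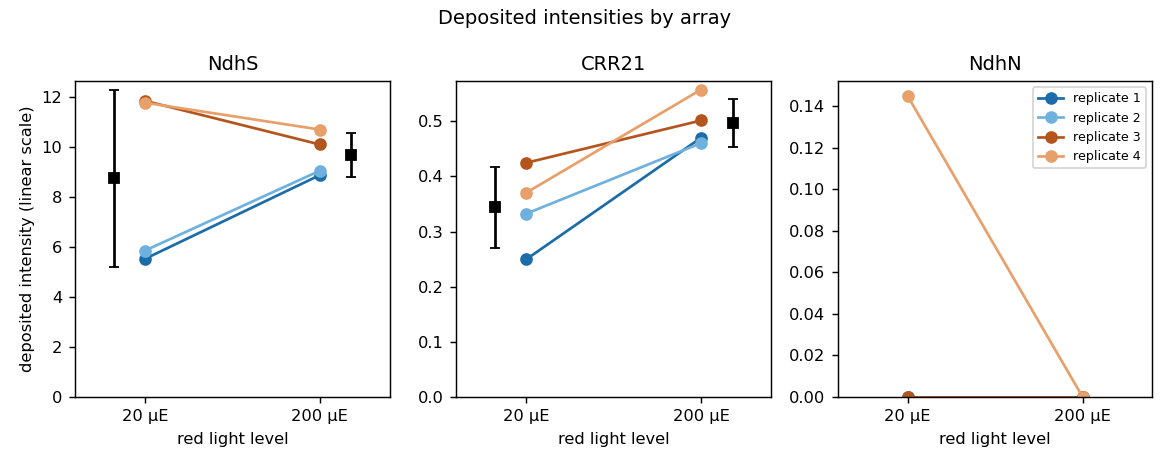
Deposited intensity (linear scale, from 0) of NdhS, CRR21 and NdhN at 20 and 200 µE. Each point is 1 array, lines join arrays of the same replicate number, and black squares with bars are means ± SD of 4 arrays (not drawn for NdhN, where 7 arrays lie on top of each other at 0). NdhS was split at 20 µE into arrays near 5.5 to 5.8 and near 11.8. CRR21 was higher at 200 µE in every pair, as were 77.5% of the probes above 0 on all arrays.

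After quantile normalization NdhS was higher at 200 µE. Its normalized intensity was 6.06, 5.96, 10.1 and 9.43 at 20 µE and 9.43, 9.91, 12.6 and 12.6 at 200 µE, so that the groups still overlapped. All 4 pairs were higher at 200 µE, by log2 differences of 0.64, 0.73, 0.32 and 0.42, a direction shared by 25% of the probes above 0 on all arrays. The mean log2 difference was 0.53 ± 0.22 (SE; limma, adjusted p = 0.284), with a 95% interval from −0.01 to 1.06. With the replicate block it passed, at an adjusted p of 0.042 by limma and a 95% interval from 0.27 to 0.79. An exact sign-flip permutation test over the 4 pairs gave p = 0.125, which is as low as 4 pairs allow.

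The rank of NdhS within its array cannot be altered by rescaling that array. Quantile normalization sets each value from this rank, so both move together by construction. The rank is therefore no separate check on the direction. A rank describes the brightness of a probe, which depends on the probe as well as on the amount of RNA. Counted from the brightest of the 3439 probes, NdhS ranked 66th, 67th, 41st and 44th at 20 µE and 44th, 42nd, 32nd and 32nd at 200 µE. Among the 690 single-gene probes its rank ran from 13 to 5. In percentiles of the array the difference was 0.49 ± 0.70 points (SE; limma, adjusted p = 0.749). The SDs of NdhS itself were 0.405 points at 20 µE and 0.186 at 200 µE (n = 4). Limma takes its variance partly from all probes, so this SE is not the spread of NdhS alone.

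Relative to the median of the array, the direction of NdhS was the opposite. Its intensity was 20.7, 21.9, 34.9 and 34.1 times the array median at 20 µE, and 17.3, 17.5, 17.8 and 18.5 times the median at 200 µE. The groups did not overlap, with every 200 µE array lower, as on 11.5% of the probes above 0 on some array. All 4 pairs were lower at 200 µE, as were 32.7% of the probes above 0 on all arrays. The log2 difference with median centring was −0.61 ± 0.22 (SE; limma, adjusted p = 0.196), and the adjusted p was 0.0798 with the replicate block on that scale. In the brightest class the median difference with median centring was −0.37. As deposited, the median log2 difference was 0.47 in the brightest class and 1.02 in the dimmest, and NdhS lay at percentile 98.2 of brightness with a deposited difference of 0.24. Of the probes in its class, 33.7% had a lower deposited difference than NdhS, and 88.5% had a lower difference after quantile normalization. The pattern of 4 higher pairs after quantile normalization together with 4 lower pairs after median centring was found on 40 probes (1.54% of those above 0 on all arrays), all in the brightest class, where they made up 6.15%. No direction is therefore given for NdhS. Which scale is nearer the RNA level was not tested.

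**Figure D2:**
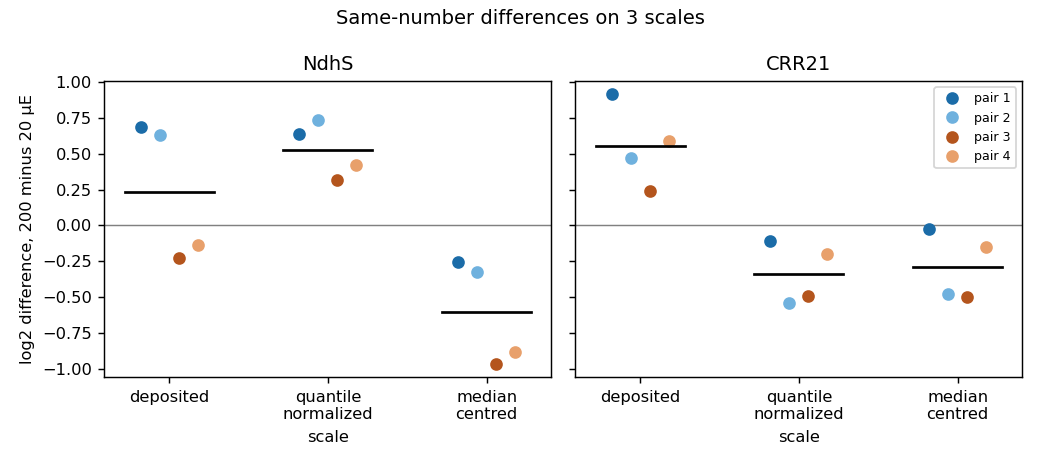
Log2 difference of each same-number pair, 200 minus 20 µE, for NdhS and CRR21 on the deposited, quantile-normalized and median-centred scales. Points are pairs and black lines are means of 4 pairs. NdhS lay at 0.53 after quantile normalization and at −0.61 after median centring, while CRR21 was below 0 on both of these scales and at 0.55 as deposited.

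CRR21 had a signal close to the median of the array. Its deposited intensity was 0.25, 0.332, 0.425 and 0.371 in replicates 1 to 4 at 20 µE and 0.47, 0.461, 0.502 and 0.558 at 200 µE. Every array at 200 µE lay above every array at 20 µE, as was the case for 37.6% of the 3119 probes above 0 on some array. The means at 20 and 200 µE were 0.344 ± 0.0736 (SD, n = 4) and 0.498 ± 0.0438 (SD, n = 4), a ratio of 1.44. The pairs were 1.88-, 1.39-, 1.18- and 1.51-fold higher at 200 µE. Deposited values higher in all 4 pairs were found on 77.5% of the 2600 probes above 0 on all arrays. The deposited log2 difference of 0.55 ± 0.20 (SE; limma, adjusted p = 0.0821) missed the threshold, where 25.7% of all probes passed as higher. It was below the median of 0.91 in the class of brightness that holds CRR21, and 21.5% of the probes of that class had a lower one. With the replicate block, the deposited difference of CRR21 passed as higher (limma, adjusted p = 0.033), where 63.4% of all probes passed as higher.

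Relative to the rest of the array CRR21 was lower at 200 µE on average. Its normalized intensity was 0.409, 0.538, 0.522 and 0.46 at 20 µE and 0.379, 0.37, 0.37 and 0.4 at 200 µE. The groups did not overlap, with every 200 µE array below every 20 µE array, as on 9.62% of the probes above 0 on some array. The means were 0.482 ± 0.0593 (SD, n = 4) and 0.38 ± 0.0141 (SD, n = 4), a log2 difference of −0.34 ± 0.092 (SE) with a 95% interval from −0.56 to −0.12. By limma the unadjusted p was 0.0092 and the adjusted p 0.0955, so that CRR21 missed the threshold. The replicate block gave an adjusted p of 0.107 by limma. Fitted without the probes at 0 on any array, the interval was wider and held 0, from −0.69 to 0.02 (limma, adjusted p = 0.264). Leaving out the 20 µE array of replicate 1, the lowest CRR21 value at that light level, gave −0.41 with an adjusted p of 0.0307 by limma. Leaving out any other single array gave adjusted p values from 0.156 to 0.212.

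All 4 pairs of CRR21 were lower at 200 µE after normalization, by log2 differences of −0.11, −0.54, −0.50 and −0.20, as were the pairs of 30.9% of the probes above 0 on all arrays. The sets of replicates gave nearly the same mean, −0.33 in replicates 1 and 2 and −0.35 in replicates 3 and 4. The differences of pairs 2 and 3 were more than 2 times those of pairs 1 and 4, so the spread of CRR21 lay within the sets and not between them. In its class of brightness, 25.4% of the probes had a lower difference after quantile normalization. Median centring gave −0.29 ± 0.15 (SE; limma, adjusted p = 0.32), again with 4 lower pairs, though pair 1 differed by only −0.03. As a ratio to the array median the groups overlapped, with a lowest value of 0.936 at 20 µE and a highest of 0.965 at 200 µE. The percentile of CRR21 within its array was 56.6, 66.3, 65.0 and 60.5 at 20 µE and 54.1, 53.3, 53.2 and 55.8 at 200 µE. The difference of −8.0 ± 2.24 points (SE; limma, adjusted p = 0.1) missed the threshold, where 4.16% of all probes passed as lower. Higher deposited values in 4 pairs together with lower normalized values in 4 pairs were found on 381 probes, or 14.7% of those above 0 on all arrays.

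**Figure D3:**
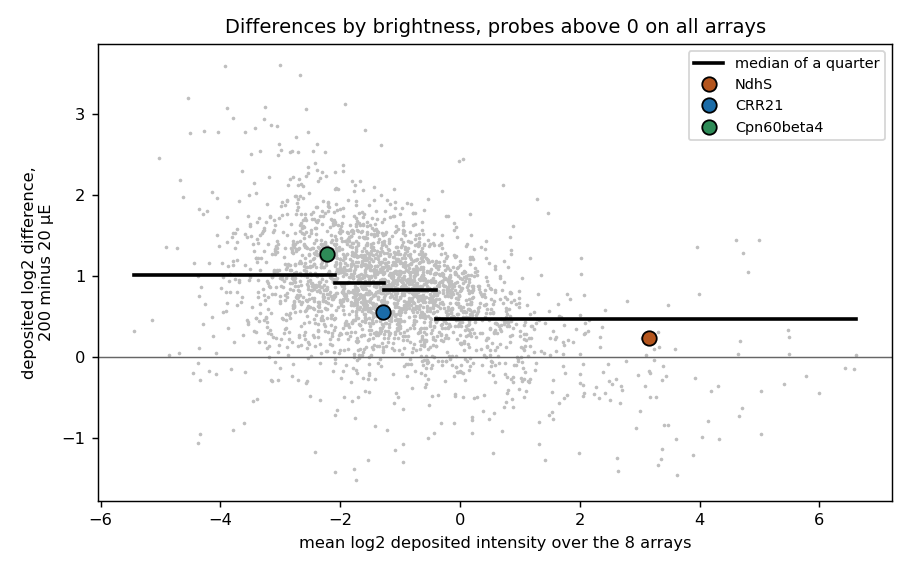
Deposited log2 difference, 200 minus 20 µE, against mean log2 deposited intensity for the 2600 probes above 0 on all 8 arrays (grey points). Black lines are medians of 4 equal classes of brightness, from 1.02 in the dimmest to 0.47 in the brightest. NdhS (0.24) and CRR21 (0.55) lay below the median of their classes and Cpn60beta4 (1.28) above it.

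NdhS and CRR21 were also set against each other within each array, where a common scale factor drops out. As deposited, the log2 ratio of NdhS to CRR21 was 4.47, 4.14, 4.80 and 4.99 at 20 µE and 4.24, 4.30, 4.33 and 4.26 at 200 µE. It differed by −0.32 between the light levels, with 3 of 4 pairs lower (exact permutation test, two-sided, p = 0.171). After quantile normalization the same ratio differed by 0.87 in the other direction, with 4 of 4 pairs higher (exact permutation test, two-sided, p = 0.0286, the smallest that 4 against 4 arrays allow when their pairing is ignored). A difference in light response between the subunit gene and the editing factor gene thus depended on the scale. The median difference as deposited was 0.47 in the brightness class of NdhS and 0.91 in that of CRR21. After quantile normalization these medians were 0.02 and −0.02. How often other pairs of probes from these classes show such ratios was not counted. The pair counts and p-values are therefore not read as particular to these 2 genes. The level of 1 probe cannot be read against that of another, so only the change in this ratio is described.

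NdhN gave no level that could be compared. All 4 arrays at 200 µE list it at 0, as do 3 of 4 arrays at 20 µE. The exception was the 20 µE array of replicate 4, with a deposited intensity of 0.145, which is 41.9% of the median of that array and percentile 23.5 of its values above 0. The 20 µE array of replicate 3, of the same set, was at 0. Counting arrays at 0, Fisher's exact test (two-sided) gave p = 1 for 3 of 4 against 4 of 4. No fold is given against a group listed at 0. With the floor used for such values, the fitted log2 value of NdhN differed by −2.24 ± 2.15 (SE; limma, adjusted p = 0.665), which rests on that single array and on the floor.

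A value above 0 on a single array was found on 94 of the 3439 probes, and on 320 probes all arrays were at 0. Of the 94, 77 had their value on a 20 µE array, from 9 on replicate 4 to 27 on replicate 1, and 17 on a 200 µE array. NdhN was the brightest of the 9 on its array. The median of these 9 probes was 0.00191. Of the 94, 6 were brighter on their arrays than NdhN on its own. NdhN was the only single-gene probe above 0 on that array alone. A listed 0 does not show that NdhN was not expressed. SBPASE, which encodes a Calvin cycle enzyme of green tissue, was listed at 0 on all 8 arrays. Whether SBPASE was expressed in these samples was not tested.

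Lists of 47 genes of the NDH complex and of cyclic electron transport were read for other parts of the pathway. Only 5 lay on single-gene probes and none on a probe with several genes. These were 2 of 18 nuclear genes of NDH subunits (NdhN and NdhS), 1 of 7 genes of assembly factors and photosystem I linkers (Cpn60beta4), 2 of 14 RNA factors of ndh transcripts (CRR21 and OTP85), and 0 of 8 genes of other cyclic and chlororespiratory electron transport. By limma 0 of the 5 passed, with 1 at an unadjusted p under 0.05 (CRR21). Their median log2 difference was 0.17, which is the value of Cpn60beta4 itself, against 0 over all probes. The differences of NdhN (−2.24) and OTP85 (0.49) each rest on 1 array above 0 and on the floor. No shift of the pathway is read from this median. With so few members the array does not cover the pathway.

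Cpn60beta4, a chaperonin subunit needed for folding the plastid-encoded NdhH protein, had deposited intensities of 0.165, 0.207, 0.0872 and 0.123 at 20 µE and 0.467, 0.479, 0.209 and 0.272 at 200 µE. All 4 pairs were higher at 200 µE, by 2.83-, 2.31-, 2.40- and 2.21-fold, as were those of 77.5% of the probes above 0 on all arrays. Relative to the array it differed by 0.17 ± 0.44 on the log2 scale after quantile normalization (SE; limma, adjusted p = 0.963). With median centring it differed by 0.44, still with 4 of 4 pairs higher on both scales. After quantile normalization 25% of the probes above 0 on all arrays were higher in 4 pairs. This share was not counted with median centring. In the dimmest class, which holds Cpn60beta4, the median difference with median centring was 0.18. For Cpn60beta4 replicates 1 and 2 were the brighter ones at both light levels, the reverse of NdhS. OTP85, like CRR21 an editing factor of the ndhD transcript, was listed at 0 on 7 arrays and at 0.00213 on the 200 µE array of replicate 4.

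Genes whose profile over the 8 arrays was most like that of a member were sought among the other single-gene probes above 0 on all arrays (534 of them), by the root mean square difference of normalized log2 values after each gene's own mean was removed. Nearest to NdhS were AT3G12000 at 0.0681, AT3G52070 at 0.107, CCB3 (AT5G36120) at 0.116, AT5G66090 at 0.124 and AT1G27660 at 0.125, against a median of 0.608 over all candidates. Like NdhS, these 5 had the lowest values in replicates 1 and 2 at 20 µE and the highest in replicates 3 and 4 at 200 µE, so the likeness holds the sets as well as the light levels. Their log2 differences ran from 0.33 (AT3G52070) to 0.55 (CCB3), and the smallest adjusted p by limma was 0.11 (AT5G66090). With the replicate block 4 of the 5 passed by limma, AT3G12000, CCB3, AT5G66090 and AT1G27660, as NdhS did, where 18% of all probes passed. They were picked for a profile like that of NdhS, so these calls are no separate evidence.

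Nearest to CRR21 were AT1G18290 at 0.121, AT2G21720 at 0.135, AT3G26580 at 0.146, AT5G19210 at 0.159 and AT4G08940 at 0.164, against a median of 0.483. Of these, 3 passed as lower by limma, namely AT1G18290 (−0.37, adjusted p = 0.0296), AT2G21720 (−0.30, adjusted p = 0.0308) and AT5G19210 (−0.55, adjusted p = 0.00849), where 6.83% of all probes passed in either direction. With the replicate block AT1G18290 lost its call (limma, adjusted p = 0.0522), which left 2 of 5. Since these genes were picked for a profile like that of CRR21, which is lower at 200 µE, their calls are no separate evidence. NdhS was at 0.516 from CRR21, with 302 genes closer to CRR21 than it. No other single-gene probe shared the pattern of NdhN.

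**Figure D4:**
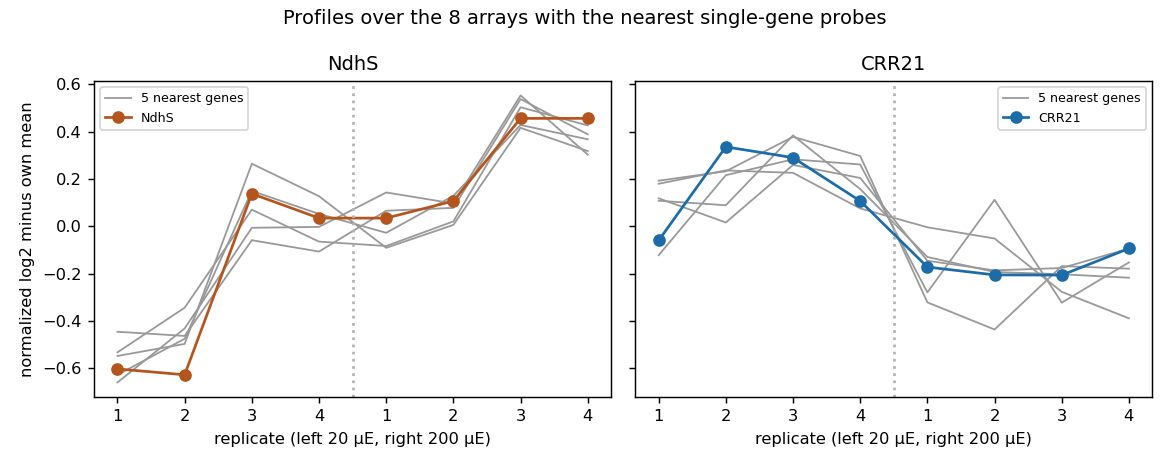
Normalized log2 values minus each gene's own mean, for NdhS and CRR21 (coloured) and the 5 single-gene probes nearest to each (grey). Replicates 1 to 4 at 20 µE stand left of the dotted line and those at 200 µE right of it, and lines only guide the eye between arrays. The NdhS profile steps with the sets of replicates at both light levels, and the CRR21 profile is lower at 200 µE with no such step.

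The identity of the probes rests on the platform annotation. In the reference gene table, NdhN overlaps its neighbours EMB3143 (AT5G58250) and ABCB25 (AT5G58270), and NdhS overlaps AT4G23885 and the long non-coding RNA gene AT4G07190. CRR21 overlaps neither of its neighbours, FLA1 (AT5G55730) and AT5G55750. None of these neighbours lay on a single-gene probe. The sources used here do not give the stretch and strand that each probe covers, so RNA of an overlapping neighbour cannot be told apart from that of NdhN or NdhS. CRR21 belongs to a large family of related genes, and a share of its signal from relatives was not tested. Of the 15 genes listed for green tissue 5 were measured, and 4 of these (LHB1B2, PSAN, PSBY and PRK) were above 0 on all arrays at mean percentiles from 76.0 to 98.7. The lists for senescence and for root and non-green tissue had 0 of 6 members measured each.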

How the data were processed

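Intensities of 3439 probes on 8 arrays were deposited by the authors, 1 value per probe and array. The sources used here do not say how they were made. The values themselves are linear, not below 0, and scaled to a maximum of 100 on each array.

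Each 0 was replaced by the smallest value above 0 on the same array before quantile normalization, which makes the distributions of all arrays identical, and before log2. The fit of light level used limma 3.58.1 (R 4.3.3; lmFit, then eBayes) with no further term and two-sided tests. P-values were adjusted after Benjamini and Hochberg over all 3439 probes, with 0.05 as the threshold. Differences are 200 minus 20 µE. The script was checked on simulated data. Other summaries used Python 3.11.15, pandas 2.3.3 and scipy 1.17.1.

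Of the 1562 probes in the platform annotation, 692 list 1 gene and 870 several, and 1877 probes are unnamed here. Through gene IDs, 690 of the 692 matched the gene table of assembly TAIR10.1, used for names and neighbours only. The named genes are the members, every gene of the pathway lists on a single-gene probe, and the 5 nearest profiles. Members and lists were chosen with earlier results of these data known. Genes of green tissue are named as markers only.

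Deviations from group means of same-numbered arrays correlated at 0.707 to 0.735 in all 4 pairs, over 2600 probes. Between light levels, arrays of the same set with other numbers correlated at 0.444 to 0.462. Arrays of different sets correlated at −0.623 to −0.556. The same-number values thus include what arrays of a set share. This pairing of the arrays by number rests on the data, since the labels do not state it. The number of arrays limits the precision.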

Additional observations from a re-analysis of the deposited data

Results flagged for a closer look

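Among 8 groups of 4 arrays examined, 2 held an array that stood far from the other 3, where chance flags about 1 group in 20. NdhN was above 0 on 1 array of 4 at 20 µE, so that the gap made up the whole range of the group (a share of 1). OTP85 was above 0 on 1 array of 4 at 200 µE, again with a share of 1. Both flags come from 3 arrays listed at 0, where any value above 0 gives this result.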

How the results depend on the processing

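The count of passing probes (235, 79 higher and 156 lower) became 927 (883 higher, 44 lower) in the deposited values and 212 (42 higher, 170 lower) with median centring. It was 97 with a floor per array set after normalization, 156 without probes at 0 on any array, 146 without the lowest 25% of probes, 619 with the replicate block, 746 with the sets as a block, 637 in replicates 3 and 4 alone, and 140 to 174 when single arrays were left out. Of the alternatives chosen after seeing the data, leaving out the probes at 0 on all arrays gave 144, the replicate block gave 2266 in deposited values and 635 with median centring. CRR21 turned to 0.55 in the deposited values, with and without the block, and ran from −0.41 to −0.28 over single arrays left out. In 22 of 25 alternatives it kept its direction and missed the threshold. NdhS turned to −0.61 with median centring, with and without the block. It passed by limma at 0.53 with the replicate block (adjusted p = 0.042) and with the sets as a block (adjusted p = 0.00703), at 0.75 in replicates 1 and 2 alone and at 0.37 in replicates 3 and 4 alone. The sets were read from these same values, so calls with the sets as a block or within a set are no separate support. Over single arrays left out NdhS ran from 0.39 to 0.66, with no call. NdhN turned to 1.44 with median centring and to 2.28 in the deposited values, with and without the block, where the floors that stand in for 0 were on average higher at 200 µE. It ran from −2.96 to 0 over single arrays left out, and was 0 without the 20 µE array of replicate 4. The filters on low values leave out NdhN, so it has no value there. The ratio of NdhS to CRR21 turned to 0.87 on the quantile scale. Among the 3 members, the replicate block changed the call of NdhS on the quantile scale only. It changed that of CRR21 in the deposited values only. There CRR21 passed as higher (limma, adjusted p = 0.033), as did 63.4% of all probes. Among the named genes near the members in profile, the replicate block added 4 calls near NdhS and ended that of AT1G18290. Among the green tissue markers it added LHB1B2 as lower at 200 µE (limma, adjusted p = 0.0482). The log2 difference of LHB1B2 was −1.15 after quantile normalization, −1.34 as deposited and −2.18 with median centring.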
